A study of Mus musculus with 4 samples.

Results

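The Schlafen genes described here are Slfn1, Slfn2, Slfn4, Slfn5, Slfn8 and Slfn9, 6 of the 32285 genes counted in spatial transcriptomes of 4 mouse tumors. They were taken by their symbols, and the set was selected on these data, by the summed counts of Slfn4 in the sections of the host strains set against those of its family, so the levels of these genes by strain are given below as a description and not as a test. The tumors grew from MC38, a colon carcinoma line of C57BL/6 origin, whose cells were placed under the skin of female mice 8 to 12 weeks old. The hosts were F1 hybrids, 2 from the cross C57BL/6J x CC075/UncJ (called CC075F1) and 2 from C57BL/6J x CC080/TauUncJ (called CC080F1). CC075 and CC080 are Collaborative Cross strains, inbred lines that mix the genomes of several founder strains, and the study classes CC075F1 as a responder and CC080F1 as a non-responder to anti-PD-1. All 4 mice had received isotype control antibody (2A3, 200 µg, once, into the peritoneum) once the tumors measured 75 to 110 mm3, and were killed 48 hours later. No anti-PD-1 treated tumor is part of these data. Every host carried a C57BL/6J genome beside its Collaborative Cross genome, and the tumor cells had the C57BL/6 background in both groups, so RNA of a spot can come from cells of 2 genotypes.

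Schlafen proteins are known as products of interferon-induced genes of lymphocytes and myeloid cells, with roles in cell quiescence, in the handling of tRNA and other RNA, and in antiviral defense. The family has short members (Slfn1 and Slfn2), members of intermediate length (Slfn3 and Slfn4) and long members that carry a helicase-like region (Slfn5, Slfn8, Slfn9 and Slfn14). Slfn2 is needed for T cells and monocytes to stay quiescent and survive, and Slfn4 is best known from macrophages and suppressive myeloid cells, where type I interferon and microbial ligands induce it.

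The 6 genes lie side by side on mouse chromosome 11 (GRCm38, GENCODE vM21), within 239 kb from position 82951349 to 83190216. Slfn5 (ENSMUSG00000054404, 82951349-82964840), Slfn2 (ENSMUSG00000072620, 83065112-83070678), Slfn1 (ENSMUSG00000078763, 83116849-83122670) and Slfn4 (ENSMUSG00000000204, 83175186-83190216) are on the plus strand. Slfn9 (ENSMUSG00000069793, 82978390-82991830) and Slfn8 (ENSMUSG00000035208, 83002158-83020810) are on the minus strand. The longest annotated transcripts of Slfn1 and Slfn2 have 2 exons, those of Slfn5, Slfn8 and Slfn9 have 6 and that of Slfn4 has 8. Slfn8 and Slfn9 are close copies of each other. Of the stretches of 90 bases within the last 500 bases of their transcripts, 9.49% in Slfn8 and 9.65% in Slfn9 also occur in another gene (each other or Slfn10-ps), so their counts carry that uncertainty. No such stretch was found at the transcript ends of Slfn1, Slfn2, Slfn4 and Slfn5.

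The members are interferon-induced genes, and all 6 were higher in spots rich in interferon-stimulated genes in the results that follow. Their promoters were therefore searched for the core of the interferon-stimulated response element. RefSeq promoters (GRCm38.p6, 250 bases before to 50 bases after a gene's start) were found for 6 of 6 members. The core was written GAAANNGAA and sought on both strands. It was present in Slfn5, Slfn8 and Slfn9 and in 8.56% of the 32851 promoters of the table. The 3 promoters with a match are shown with that of Slfn4, the gene on whose counts the set was selected, in which these letters were not found. Each is written 5′ to 3′ on the strand of its gene, and capitals mark the matches.
Slfn5, chr11:82951852-82952151, plus strand: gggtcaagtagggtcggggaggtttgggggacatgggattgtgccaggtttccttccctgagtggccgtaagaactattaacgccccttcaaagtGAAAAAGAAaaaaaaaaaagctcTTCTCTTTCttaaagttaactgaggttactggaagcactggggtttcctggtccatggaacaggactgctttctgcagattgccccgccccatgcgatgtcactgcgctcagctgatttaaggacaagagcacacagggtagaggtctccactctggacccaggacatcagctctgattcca
Slfn8, chr11:83020761-83021060, minus strand: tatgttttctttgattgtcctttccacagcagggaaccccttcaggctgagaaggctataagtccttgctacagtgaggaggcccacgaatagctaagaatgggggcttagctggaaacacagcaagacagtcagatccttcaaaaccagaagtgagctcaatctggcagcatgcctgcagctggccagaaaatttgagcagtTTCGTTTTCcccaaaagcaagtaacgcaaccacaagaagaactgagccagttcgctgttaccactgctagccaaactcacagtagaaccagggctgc
Slfn9, chr11:82991781-82992080, minus strand: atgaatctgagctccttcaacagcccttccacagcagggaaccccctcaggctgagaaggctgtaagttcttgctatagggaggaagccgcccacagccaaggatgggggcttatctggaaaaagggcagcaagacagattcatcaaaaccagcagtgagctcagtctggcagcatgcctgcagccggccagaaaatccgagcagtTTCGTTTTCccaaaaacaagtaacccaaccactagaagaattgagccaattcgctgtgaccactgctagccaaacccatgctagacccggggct
Slfn4, chr11:83174936-83175235, plus strand: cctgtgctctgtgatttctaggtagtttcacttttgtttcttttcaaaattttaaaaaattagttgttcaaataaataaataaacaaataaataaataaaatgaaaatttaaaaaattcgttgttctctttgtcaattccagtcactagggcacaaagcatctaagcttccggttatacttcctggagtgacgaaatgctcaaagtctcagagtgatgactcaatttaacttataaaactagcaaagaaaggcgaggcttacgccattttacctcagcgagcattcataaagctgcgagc
The matches of Slfn8 and Slfn9 had the same letters and began 47 and 44 bases before the start, and those of Slfn5 began 155 and 132 bases before it. Neither the gamma-activated site TTCNNNGAA (in 8.30% of promoters, both strands) nor the PU.1 site GAGGAAGT (in 3.20%, both strands) was found in a promoter of the 6 genes. A second RefSeq start of Slfn8 lay downstream, and its window held the same match.

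RNA was measured with Visium slides, whose spots carry barcodes and bind the polyadenylated RNA of the tissue laid over them. A unique molecular identifier (UMI) marks each captured molecule, so a gene's UMI count does not grow with its length. The 4 sections held 2710 to 3276 spots under tissue and 82594649 to 146460975 UMIs, with medians of 31158 to 41740 UMIs per spot. CC075F1 replicate 2 was the deepest and held 34 spots (1.04%) with more than 1% of their UMIs in skin, muscle or fat genes, against 0 or 1 in each other section. A spot covers several cells of different types, and fewer cells of a type cannot be told apart from less RNA per cell. Shisal2b, the most abundant of the tumor markers, was at 123 to 267 CPM (CPM values here are UMIs per 1e6 UMIs of the section), and the epithelial keratin gene Krt8 was at 0.0478 to 0.242 CPM in all sections. The protocol describes sections of 4 blocks on a Visium slide, with a permeabilization set for each block, whose part in the results was not tested.

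Slfn4 was the member with the largest ratio of its highest to its lowest section. It was at 1.32 and 1.75 CPM in the CC075F1 sections (109 and 257 UMIs) and at 5.90 and 15.2 CPM in the CC080F1 sections (552 and 1712 UMIs). All CC080F1 values lay above all CC075F1 values, and the CC080F1 sections also differed most from each other. The mean of CC075F1 was 1.54 ± 0.308 CPM, and that of CC080F1 was 10.5 ± 6.57 CPM (SD, n = 2 sections a strain). At least 1 Slfn4 UMI was found in 3.73% and 7.36% of spots in CC075F1 (exact binomial 95% intervals 3.05 to 4.51% and 6.49 to 8.30%) and in 15.2% and 34.8% in CC080F1 (13.9 to 16.6% and 33.1 to 36.5%). These intervals cover counting error only. After each spot was thinned to 10000 UMIs to remove depth, CC075F1 had 1.33% and 1.86% of such spots and CC080F1 had 5.63% and 13.4%, in the same order. Single spots held up to 5 and 3 Slfn4 UMIs in the CC075F1 sections and up to 13 and 18 in the CC080F1 sections.

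The short members differed from Slfn4 in this. Slfn2 was at 29.9 and 27.4 CPM in CC075F1 and at 29.0 and 30.1 CPM in CC080F1, and the strains overlapped. It was found in 55.7% to 62.9% of spots in every section. Slfn1, the other short member, was at 3.96 and 3.74 CPM in CC075F1 and at 4.09 and 6.74 CPM in CC080F1. The strains did not overlap here, yet CC080F1 replicate 1 lay closer to the CC075F1 sections than to the other section of its strain.

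Of the long members, Slfn5 was at 11.9 and 6.30 CPM in CC075F1 and at 16.6 and 19.5 CPM in CC080F1. Slfn9 was at 24.9 and 12.4 CPM in CC075F1 and at 31.0 and 26.4 CPM in CC080F1. Neither overlapped between strains, and in both CC075F1 replicate 2 was the lowest section. Non-overlap here, as for Slfn1 and Slfn4, is a description, and the share of all genes without overlap was not counted. With scaling by library size alone, as in CPM, the median log2 fold change (CC075F1 over CC080F1) of all genes tested was -0.31. Slfn8 was at 14.3 and 6.70 CPM in CC075F1 and at 7.395 and 11.1 CPM in CC080F1, where the sections of CC075F1 lay on either side of those of CC080F1. In this overlap it resembled Slfn2.

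**Figure D1:**
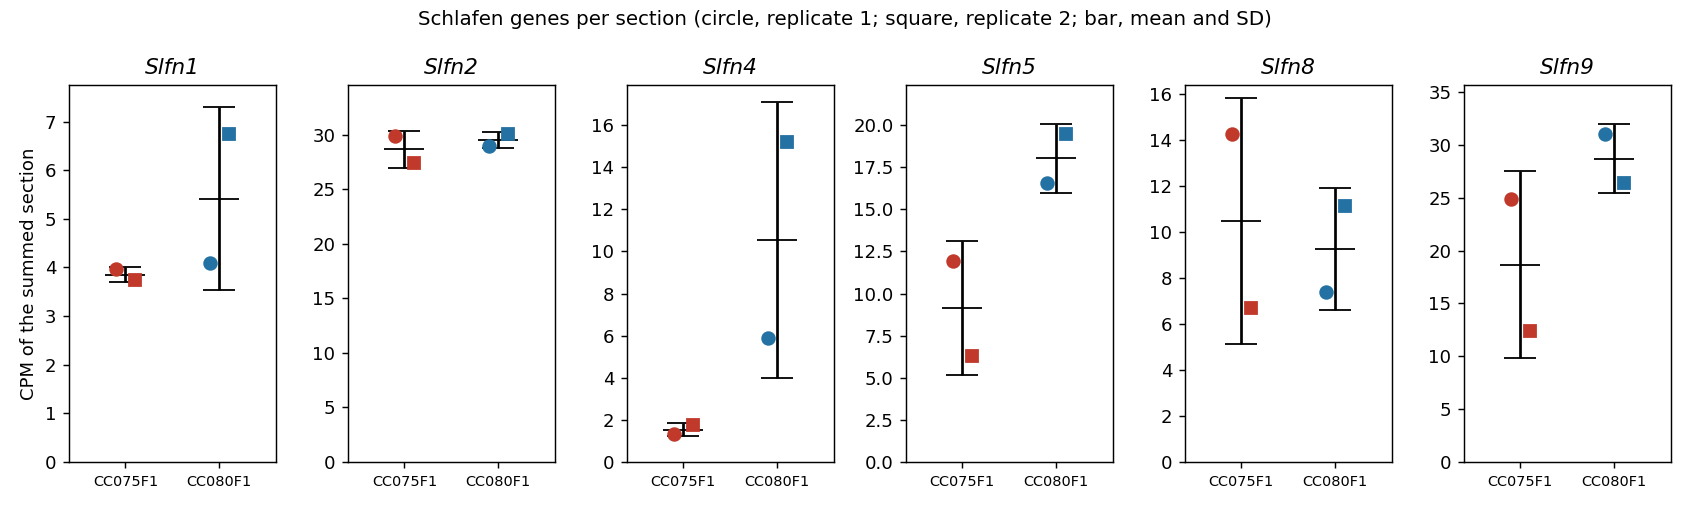
Level (CPM, vertical axes, each from 0) of the 6 Schlafen genes in each tumor section, by host strain; circles are replicate 1, squares replicate 2, and bars give the mean and SD (n = 2). Slfn4 sits at 1.32 and 1.75 CPM in CC075F1 and at 5.90 and 15.2 CPM in CC080F1, while Slfn2 and Slfn8 overlap between the strains.

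Fitted over the 4 summed sections with TMM scaling, Slfn4 had a log2 fold change (CC075F1 over CC080F1) of -2.43 ± 0.54 (SE), a level 5.38-fold lower. The other fold changes on the log2 scale were -0.73 ± 0.23 for Slfn5, -0.37 ± 0.22 for Slfn9, -0.18 ± 0.36 for Slfn1, 0.28 ± 0.21 for Slfn2 and 0.40 ± 0.31 for Slfn8. In this fit 0.0899% of 15572 genes passed an adjusted p of 0.05 (14 genes by edgeR, with 846 at an unadjusted p under 0.05). No test is read from it for the members, which were selected on this contrast. The value of Slfn4 rested in part on CC080F1 replicate 2, since it was -1.49 without that section and -2.03 to -2.99 when one of the others was left out. The sign was unsettled for Slfn1, which was at 0.32 without CC080F1 replicate 2 and at 0.03 without CC075F1 replicate 1, and for Slfn2, which was at -0.04 with scaling by library size alone. That scaling moved the median of all genes to -0.31. Slfn4, Slfn5 and Slfn9 kept a negative value and Slfn8 a positive value in every setting, and Slfn4 was at -2.42 in interior spots alone.

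Within the family, Slfn4 made up 1.53% and 3.01% of the UMIs of the 6 genes in CC075F1 and 6.28% and 13.9% in CC080F1. The 5 other genes summed to 85.0 and 56.6 CPM in CC075F1 and to 88.1 and 93.8 CPM in CC080F1. Without Slfn4, CC075F1 replicate 2 stood below the other 3 sections, which lay close together. Slfn2 held the largest share in 3 of 4 sections, 34.6% and 47.0% in CC075F1 and 27.6% in CC080F1 replicate 2, and Slfn9 held 33.01% in CC080F1 replicate 1.

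The remaining Schlafen genes had few UMIs. Slfn3, which lies next to Slfn4, was at 0.872 and 0.696 CPM in CC075F1 and at 1.55 and 1.14 CPM in CC080F1, and its strain difference did not pass (log2 fold change -0.46 ± 0.38, adjusted p = 0.832, edgeR). Slfn14, a long member known from platelets and red cell precursors, Slfnl1, a related gene on chromosome 4, and the antisense RNA Slfn5os had 0 to 2 UMIs in every section. Apart from the members, the annotation places 57 genes within 500 kb of the cluster, of which 23 were tested between strains. Of these 0 passed in edgeR, with 5 of 23 at an unadjusted p under 0.05, against 846 of 15572 over all genes. Single values ranged from -2.29 ± 0.36 for AA465934 (adjusted p = 0.118, edgeR) to 1.77 ± 0.54 for 1700020L24Rik (adjusted p = 0.640, edgeR). The median log2 fold change of the 23 was -0.01 against -0.02 over all genes, with 11 positive and 12 negative values.

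The arrangement of the members across the tissue was described with Moran's I. This index (similarity of a spot to its nearest neighbors, computed on log2(CPM + 1)) was 0.0560 and 0.0395 for Slfn4 in CC075F1 and 0.0798 and 0.151 in CC080F1. The last was the highest value of any member in any section. Sparse counts lower this index, and Slfn4 had the fewest UMIs in CC075F1, so the strains are not compared by it. In CC075F1 replicate 1 the others ranged from 0.0303 for Slfn9 to 0.0843 for Slfn5, with Slfn4 above Slfn1 (0.0400), Slfn2 (0.0394) and Slfn9. In CC080F1 replicate 2 the index was 0.131 for Slfn5 and 0.110 for Slfn9, and in CC075F1 replicate 2 it was 0.130 for Slfn2. Spots within 3 grid steps of the tissue edge held more Slfn4 per UMI than interior spots in 4 of 4 sections. The edge to interior ratios were 1.18 and 2.45 for CC075F1 (17 and 69 Slfn4 UMIs at the edge). For CC080F1 they were 2.18 and 1.34 (260 and 345 UMIs at the edge). Slfn2 and Slfn5 had ratios above 1 in every section as well (1.10 to 2.08 and 1.03 to 2.19), whereas Slfn8 ranged from 0.681 to 1.29.

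**Figure D2:**
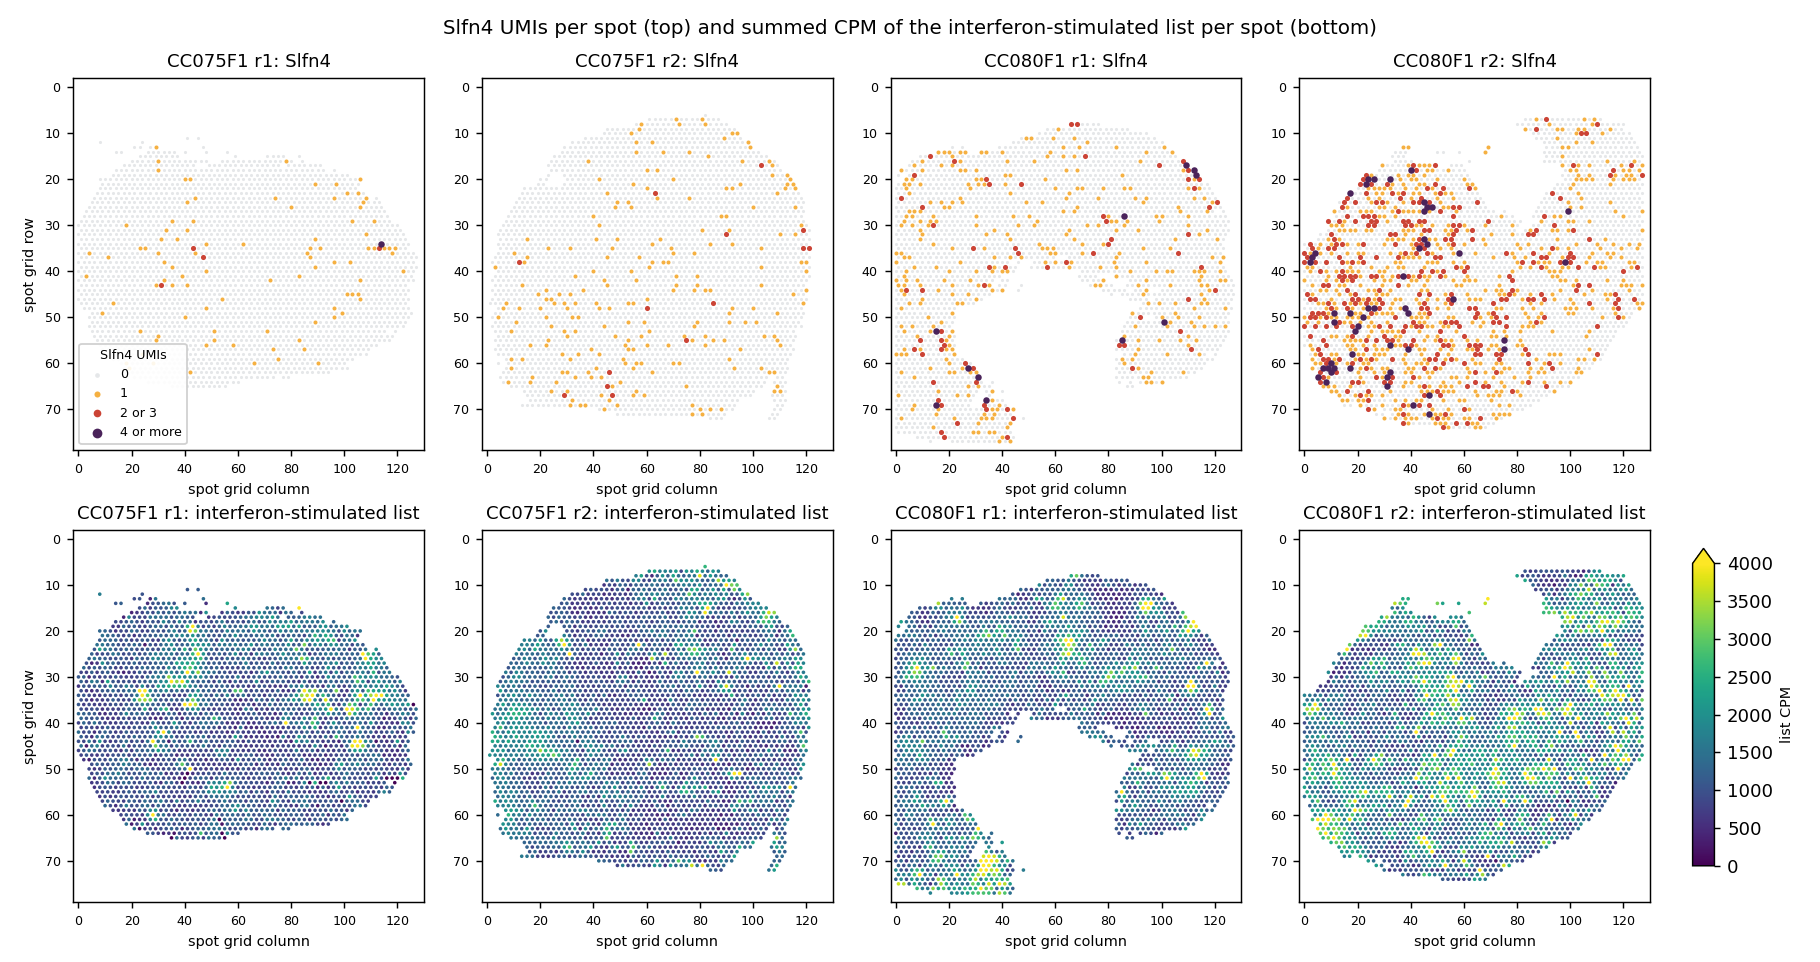
Slfn4 UMIs in each spot (upper row; grey 0, orange 1, red 2 or 3, purple 4 or more) and summed CPM of the interferon-stimulated list (lower row) over the 4 sections, with axes in spot grid rows and columns. Spots with Slfn4 make up 3.73% and 7.36% in CC075F1 and 15.2% and 34.8% in CC080F1, while list-rich spots are seen in every section.

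Spots with a UMI of 1 member tended to hold a UMI of another. For all 15 pairs and in every section, the number of spots with both exceeded the number given by independent detection, by a factor of 1.04 to 1.92. The ratios were 1.33 to 1.92 for Slfn1 with Slfn4 (21 to 277 spots with both), 1.41 to 1.502 for Slfn1 with Slfn8, 1.36 to 1.46 for Slfn1 with Slfn5 and 1.21 to 1.75 for Slfn4 with Slfn5, where the highest value came from CC075F1 replicate 1 with 47 shared spots. They were 1.04 to 1.10 for Slfn2 with Slfn9 and 1.04 to 1.14 for Slfn4 with Slfn9. Deep spots detect more of every gene. On CPM, the Spearman correlations of the pairs over 2709 to 3276 spots were 0.005 to 0.186. CPM scales counts by depth, but whether a spot holds any UMI of a gene still depends on depth. The part of depth in these values was not tested.

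To relate the members to interferon genes, each section was split by the summed CPM of 28 interferon-stimulated genes. Among them are Isg15, Rsad2 and the Ifit genes, and none is a Schlafen gene. Mx1 and Mx2 were listed too but were not among the genes counted. The 33.3% of spots with the highest sums (high spots) were compared with the 33.3% with the lowest (low spots), as 8 sums from 4 sections with the section as block. All 6 members were higher in the high spots (6 of 6 at an adjusted p under 0.05, edgeR), where 4.91% of 13824 genes passed in that direction. In CC080F1 replicate 2, Slfn4 was at 8.16 CPM in low and 25.6 CPM in high spots, and in CC080F1 replicate 1 at 3.67 and 10.8 CPM. In CC075F1 it was at 0.424 and 2.72 CPM in replicate 1 and at 1.03 and 3.003 CPM in replicate 2. The ratio of high to low spots was 2.93 to 6.41 in the 4 sections. The highest came from CC075F1 replicate 1, which held 109 Slfn4 UMIs in all its spots. Without Bst2, the most abundant listed gene, in the split, the ratio was 3.03 to 4.66, a setting added after the data were seen. The high spots of CC075F1 stayed below the low spots of CC080F1.

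Slfn1, a short member, had the largest log2 fold change (1.83 ± 0.12 SE, adjusted p = 0.000136), followed by Slfn4 (1.604 ± 0.14, adjusted p = 0.000792) and Slfn5 (1.46 ± 0.10, adjusted p = 0.000144), each by edgeR over 4 sections. Slfn8 was at 1.26 ± 0.10 (adjusted p = 0.000336, edgeR) and Slfn2 at 0.90 ± 0.10 (adjusted p = 0.00187, edgeR). Slfn9 was at 0.44 ± 0.07 (adjusted p = 0.0102, edgeR) and missed the threshold without CC080F1 replicate 2 (adjusted p = 0.0941). No other left-out section and none of the other settings removed a member, including splits within strata of equal depth. High spots also held more monocyte and macrophage RNA (4 of 10 and 9 of 14 listed genes passed upward) and T and NK cell RNA (7 of 13), and their part in the result was not tested. The median UMIs per spot in high and low spots were 29205 and 33270 in CC075F1 replicate 1, 36400 and 44935 in CC075F1 replicate 2, 33564 and 33175 in CC080F1 replicate 1 and 33900 and 34955 in CC080F1 replicate 2. Edge spots made up 23.4% of the high and 19.9% of the low spots of CC075F1 replicate 1 and 33.9% and 10.8% in replicate 2, whereas in CC080F1 they made up 26.5% and 42.1% in replicate 1 and 17.6% and 27.2% in replicate 2.

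**Figure D3:**
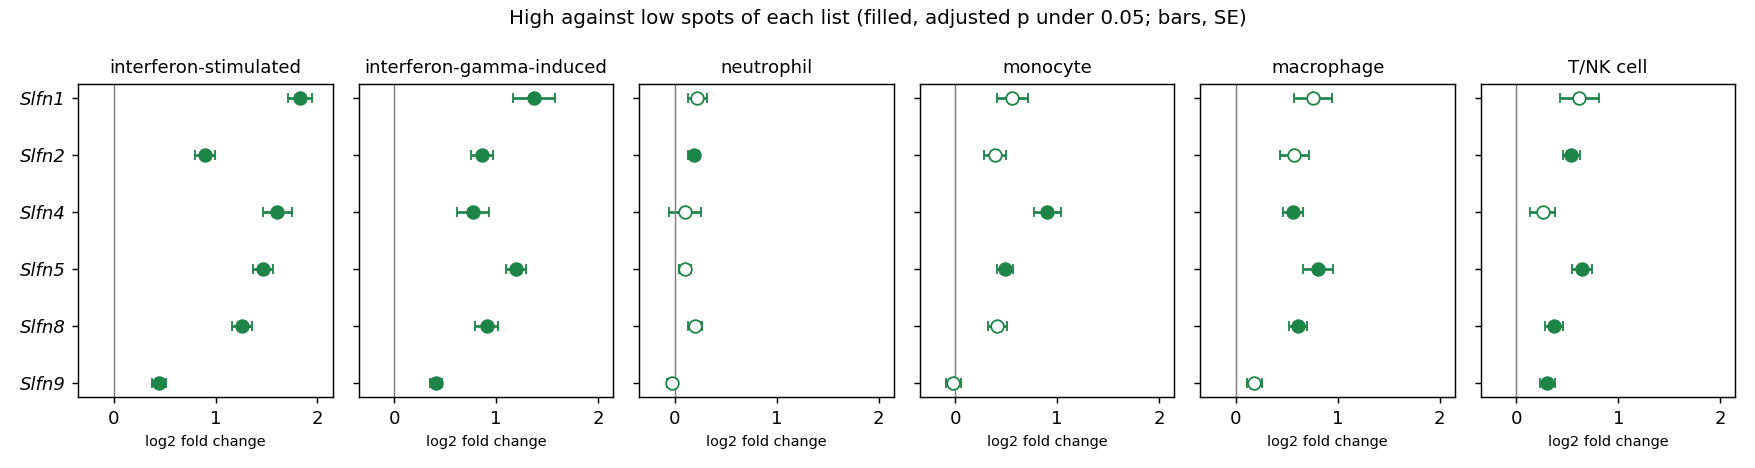
Log2 fold change (horizontal axes, bars SE) of each Schlafen gene between high and low spots of 6 gene lists, from 8 sums over 4 sections; filled points passed an adjusted p of 0.05 in edgeR. All 6 genes pass for both interferon lists, with Slfn1 at 1.83 and Slfn9 at 0.44 for the interferon-stimulated list.

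The split by 22 genes induced by interferon gamma (among them Cxcl9, Gbp2 and the MHC class II genes) also placed 6 of 6 members higher, against 9.05% of 13800 genes. Cxcl11 was listed too but was not among the genes counted. The log2 fold changes were 1.37 ± 0.20 for Slfn1, 1.20 ± 0.10 for Slfn5, 0.91 ± 0.12 for Slfn8, 0.86 ± 0.11 for Slfn2, 0.77 ± 0.16 for Slfn4 and 0.41 ± 0.06 for Slfn9 (adjusted p 0.00157 to 0.0211, edgeR). Slfn4 went from 1.09 to 1.81 and from 1.53 to 2.33 CPM in CC075F1, and from 3.80 to 9.57 and from 11.3 to 21.1 CPM in CC080F1. In the same high spots 12 of 13 T and NK cell, 8 of 10 monocyte, 8 of 14 macrophage, 6 of 7 dendritic cell and 6 of 6 endothelial genes passed upward as well, and their part in the result was not tested. Without CC080F1 replicate 2, Slfn5 alone passed. Slfn4 also missed the threshold without CC075F1 replicate 1 (adjusted p = 0.0635) and with spots split within depth strata (adjusted p = 0.0866, edgeR).

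Among myeloid lists, the monocyte list (10 genes, with Ly6c2 and Ccr2) gave the largest value for Slfn4. It was at 0.674 and 1.07 CPM in the low and at 1.88 and 2.82 CPM in the high spots of CC075F1, and at 4.66 and 11.4 CPM against 7.88 and 18.8 CPM in CC080F1. The log2 fold change was 0.90 ± 0.13 (adjusted p = 0.0343, edgeR), and Slfn5 was at 0.49 ± 0.08 (adjusted p = 0.0366, edgeR). These were 2 of 6 members against 1.26% of 13820 genes. Slfn1 (0.56), Slfn8 (0.41), Slfn2 (0.39) and Slfn9 (-0.02) did not pass. In these spots 8 of 28 interferon-stimulated and 3 of 7 fibroblast genes passed upward as well, and their part in the result was not tested. Fn1, the fibronectin gene that fibroblasts and tumor cells also express, took 71.0 to 79.1% of the list's UMIs. With spots split by the other monocyte genes, a setting chosen after this was seen, 6 of 6 members passed against 8.5% of 13828 genes, with Slfn4 at 0.95 (adjusted p = 0.00431, edgeR) and Slfn9 at 0.44. In the first split no member passed in edgeR without CC080F1 replicate 1 or without CC080F1 replicate 2 (5 of 6 at an unadjusted p under 0.05 each time).

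For the macrophage list (14 genes, with Lyz2, Apoe and the C1q genes), 3 of 6 members passed against 1.84% of 13777 genes. They were Slfn5 (log2 fold change 0.81 ± 0.15, adjusted p = 0.0493), Slfn8 (0.61 ± 0.09, adjusted p = 0.0353) and Slfn4 (0.56 ± 0.10, adjusted p = 0.0483), all by edgeR. All 6 members had ratios above 1 in every section, but the calls lay near the threshold. Slfn4 passed in 4 of 13 other settings, and no member passed in edgeR without CC080F1 replicate 1 or without CC080F1 replicate 2 (5 at an unadjusted p under 0.05 each time). Slfn1 (0.76), Slfn2 (0.57) and Slfn9 (0.18) did not pass. In these spots 10 of 28 interferon-stimulated genes passed upward too, and their part was not tested.

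The neutrophil list (19 genes) gave a different result. Only Slfn2 passed (0.18 ± 0.05, adjusted p = 0.0393, edgeR), 1 of 6 members against 4.94% of 13837 genes, and it was lost in 6 of 13 other settings. Slfn4 was at 0.10 ± 0.15 (adjusted p = 0.727, edgeR). Mmp9, a gelatinase gene that macrophages and tumor stroma also express, took 54.5 to 91.5% of the list's UMIs, and 11 of the 19 genes were under 1 CPM, among them Ly6g, Camp and Retnlg, which are typical of neutrophils. With Mmp9 left out of the split, again chosen after this was seen, 4 of 6 members passed against 4% of 13770 genes. Slfn4 was then at 0.81 (adjusted p = 0.000529, edgeR), from 0.552 to 2.45 and from 1.51 to 2.56 CPM in CC075F1 and from 4.59 to 7.93 and from 12.8 to 20.2 CPM in CC080F1. Slfn1 (0.69), Slfn2 (0.44) and Slfn5 (0.43) were the others. In the first split 18 of 28 interferon-stimulated, 9 of 22 interferon-gamma-induced and 7 of 14 macrophage genes passed upward. There 11 of 12 proliferation genes passed downward, and the part of all these genes was not tested.

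**Figure D4:**
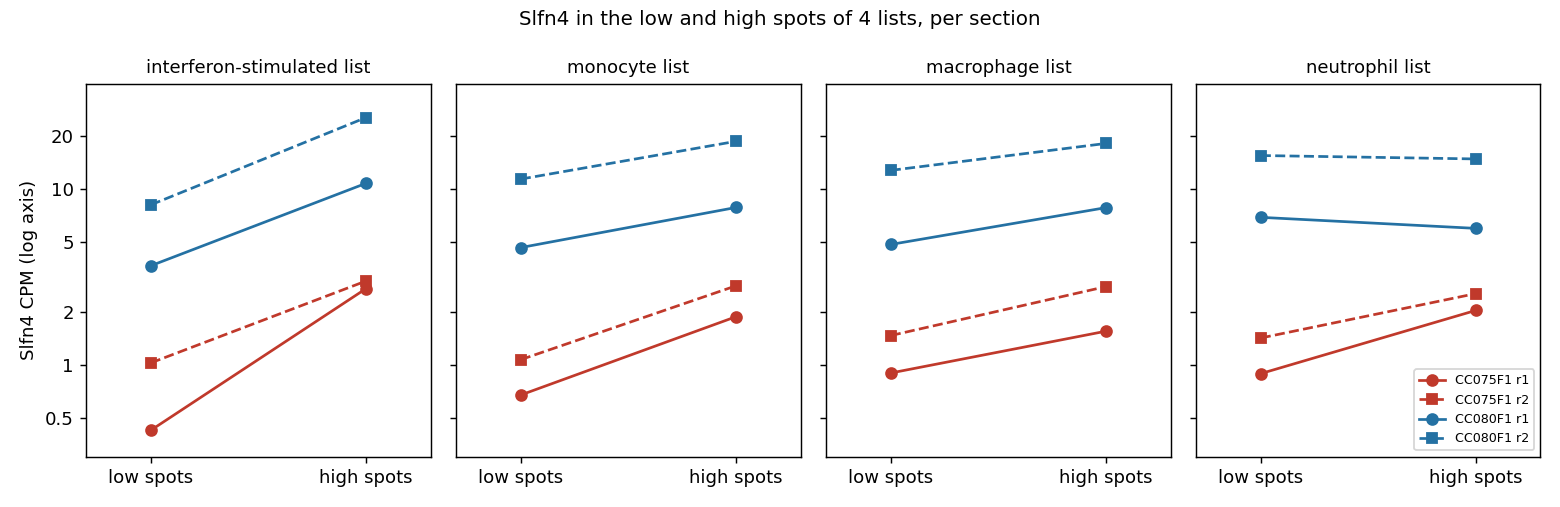
Slfn4 CPM (log axis) in the low and high spots of 4 gene lists, with a line for each section. Slfn4 is higher in the high spots of all 4 sections for the interferon-stimulated, monocyte and macrophage lists, while for the neutrophil list the ratio is above 1 in CC075F1 (1.79 and 2.29) and below 1 in CC080F1 (0.865 and 0.956).

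In spots rich in T and NK cell genes (13 genes, with Cd3e and Nkg7), 4 of 6 members passed against 7.92% of 13793 genes. Slfn5 was at 0.65 ± 0.10 (adjusted p = 0.0111), Slfn2 at 0.54 ± 0.08 (adjusted p = 0.0113), Slfn8 at 0.37 ± 0.09 (adjusted p = 0.0400) and Slfn9 at 0.30 ± 0.07 (adjusted p = 0.0361), all by edgeR. Slfn4 was at 0.26 ± 0.12 (adjusted p = 0.186, edgeR) and Slfn1 at 0.62 ± 0.19 (adjusted p = 0.0751, edgeR). In the same spots 19 of 22 interferon-gamma-induced and 6 of 6 endothelial genes passed upward, and their part was not tested. None of the members passed in edgeR without CC080F1 replicate 2 (4 at an unadjusted p under 0.05).

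Whether these relations differed between strains was tested as an interaction. No member passed for any of the 6 lists by edgeR, and 0.00723%, 0.029%, 0%, 0.00724%, 0% and 0.00725% of all genes passed for the interferon-stimulated, interferon-gamma-induced, neutrophil, monocyte, macrophage and T and NK cell lists. The counts at an unadjusted p under 0.05 were 250, 528, 612, 172, 150 and 450 genes. For Slfn4 in interferon-stimulated spots the interaction was 0.22 ± 0.33 on the log2 scale. A p above the threshold does not show that the strains were alike.

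The strain difference of Slfn4 was also set against the content of each section. Per 1000 UMIs of the interferon-stimulated list, there were 1.08 and 1.49 Slfn4 UMIs in CC075F1 and 4.41 and 8.83 in CC080F1. Per 1000 UMIs of the monocyte list CC075F1 had 3.03 and 4.67 and CC080F1 had 9.85 and 16.7. These ratios use the same Slfn4 counts on which the gene was selected and are a description. Of the 28 interferon-stimulated genes tested between strains, 0 passed by edgeR (3 at an unadjusted p under 0.05) and 22 had a negative value, with a median log2 fold change of -0.34. Bst2, the most abundant of them, was at 351 and 506 CPM in CC075F1 and 286 and 386 CPM in CC080F1, and Ifi27l2a was at 87.9 and 116 CPM against 248.8 and 371 CPM. The 22 interferon-gamma-induced genes tested were all positive (median 0.81, 13 at an unadjusted p under 0.05), and Ido1, the tryptophan-degrading enzyme, and H2-Eb1, an MHC class II chain, passed, at 4.19 ± 0.35 (adjusted p = 0.0181) and 3.66 ± 0.34 (adjusted p = 0.0263, edgeR). Cd74, the MHC class II invariant chain and the most abundant gene of that list, was at 2193 and 1568 CPM in CC075F1 against 291 and 391.5 CPM (log2 fold change 2.74 ± 0.39, adjusted p = 0.0778, edgeR). Psmb8, an immunoproteasome subunit, was at 0.73 ± 0.33 (adjusted p = 0.830, edgeR).

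None of the 12 genes of interferon signalling passed by edgeR (2 at an unadjusted p under 0.05). Ifngr1, a chain of the interferon gamma receptor, was at 118 and 65.0 CPM in CC075F1 and at 105 and 111 CPM in CC080F1. None of the 10 monocyte, 16 neutrophil and 14 macrophage genes tested passed either (2, 3 and 5 at an unadjusted p under 0.05), with medians of -0.36, -0.16 and 0.53. Fn1 was at 337 and 267 CPM in CC075F1 and 462 and 720 CPM in CC080F1, Ccr2, the chemokine receptor of monocytes, at 46.3 and 21.2 against 63.7 and 50.1 CPM, and Lyz2, the lysozyme gene of macrophages, at 2289.9 and 1736 against 1199.6 and 1498 CPM. Of 13 T and NK cell genes Cd3g, a chain of the T cell receptor complex, passed (2.42 ± 0.27, adjusted p = 0.0491, edgeR). In that list 10 genes were at an unadjusted p under 0.05, 12 had a positive value and the median was 1.65.

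To find genes with a like pattern, Spearman correlations were computed over blocks of the spot grid (85 to 99 per section, median 36 spots) and averaged over the sections. They are descriptions, since the blocks of a section share a library and neighborhood. Genes at 5 CPM or more in every section were compared. Slfn4 and Slfn1 are themselves below that level in some sections. The nearest genes to Slfn4 were Irf7, the transcription factor that amplifies interferon production (mean rho 0.41, 0.25 to 0.52 over sections), Isg15, a ubiquitin-like interferon product (0.34), Ly6a, the surface protein Sca-1 (0.33), Ifi204, a DNA sensor family gene (0.32), and Fcgr1, the high affinity IgG receptor of monocytes and macrophages (0.32). Over all genes compared, the median for Slfn4 was 0.01 and the 95th percentile 0.14.

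Some of these genes were also nearest to other members. Ifi204 led for Slfn1 (0.58) and for Slfn5 (0.65), with Irf7 (0.53) and Stat2 (0.53) next for Slfn1 and the complement gene Cfb (0.57) and Stat2 (0.55) next for Slfn5. Slfn2 was nearest to Ly6a (0.65), Cfb (0.65) and Tap1 (0.65), a peptide transporter of MHC class I loading. Slfn8 was nearest to the chemokine gene Cxcl10 (0.55), to Oasl2 (0.54) and to Ms4a4c (0.53). For Slfn9 the nearest genes were Lig1, Uhrf1 and Tk1 (0.57 each), which act in DNA replication and its supply. The median correlation with the 12 proliferation genes was 0.50 for Slfn9 and -0.03 to 0.32 for the others, and all 12 were positive in every section for Slfn9, as they were for Slfn2 and Slfn5. With 24 interferon-stimulated genes the medians were 0.42 for Slfn8, 0.40 for Slfn5, 0.39 for Slfn1, 0.31 for Slfn2, and 0.23 for both Slfn4 and Slfn9. With 6 endothelial genes they were higher than this for Slfn2 (0.49), Slfn5 (0.42) and Slfn9 (0.37). They were lower for Slfn1 (0.30), Slfn8 (0.13) and Slfn4 (0.05). The general level differed between the members, with medians over all genes from 0.01 for Slfn4 to 0.16 for Slfn9. The 95th percentiles over all genes ran from 0.14 for Slfn4 to 0.41 for Slfn9, with 0.39 for Slfn2.

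**Figure D5:**
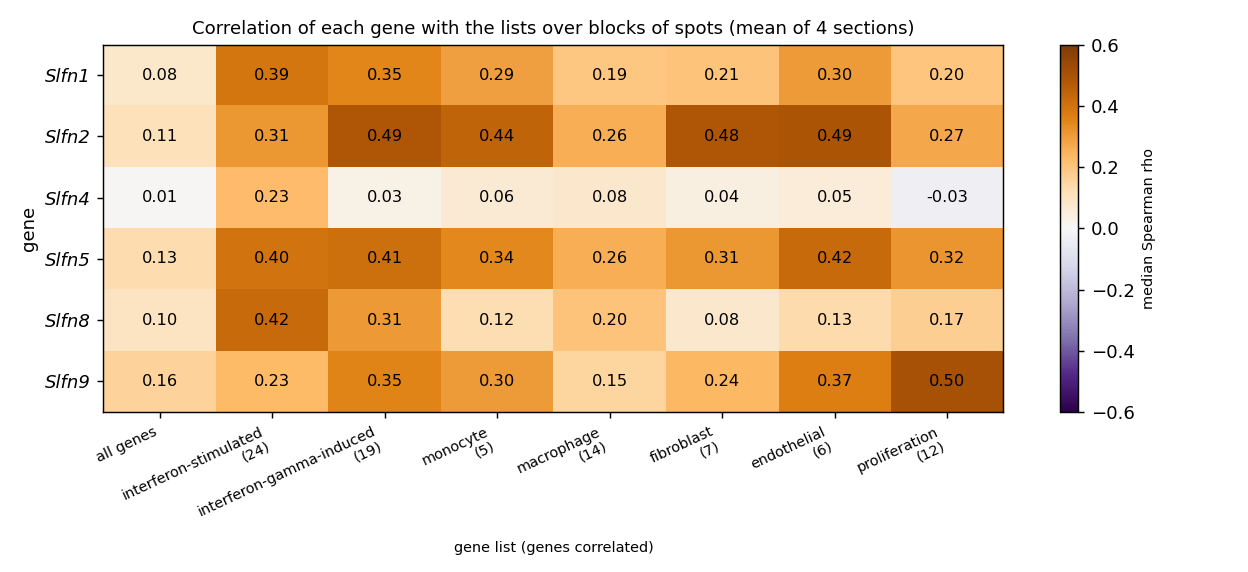
Median Spearman rho of each Schlafen gene (rows) with the genes of 7 lists and with all genes (columns, number of genes in parentheses), over blocks of spots and averaged over 4 sections. Slfn9 has its highest value with the proliferation list (0.50), and Slfn4 with the interferon-stimulated list (0.23).

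After this was seen, the 33.3% of spots richest and poorest in the proliferation list were compared as values with no test. Slfn9 was at 20.1 and 29.7 CPM in the low and high spots of CC075F1 replicate 1 and at 7.93 and 16.0 CPM in replicate 2. In CC080F1 it was at 25.2 and 33.8 CPM in replicate 1 and at 16.5 and 31.9 CPM in replicate 2. The ratios were 1.34 to 2.02, above 1 in 4 of 4 sections. Slfn4 had ratios of 0.481 to 1.03, above 1 in 1 section, and those of Slfn1, Slfn2, Slfn5 and Slfn8 ranged from 0.884 to 1.46.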

How the data were processed

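UMI counts were measured in 4 Visium sections. Per the study's methods and file headers, the authors aligned reads with Space Ranger 1.3.1 to mm10 (GRCm38) and deposited raw UMI counts per gene and spot under tissue, without normalization. Host haplotypes other than C57BL/6J were thus read against the C57BL/6J reference. Counting across paralogs follows Space Ranger, which keeps reads that map to 1 gene. The 1 spot without UMIs was dropped.

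Counts were summed over spots per section, or per section and class of spots, and filtered with filterByExpr, scaled by TMM and tested by the quasi-likelihood method of edgeR 4.0.16 under R 4.3.3. All 6 members passed that filter in each comparison. P-values were adjusted by Benjamini-Hochberg over all genes tested, at 0.05, the genes that defined a class included. SEs are the fold change over the root of F. The pipeline was tested on simulated data. The study gives no test over genes for these sections. Sections are different tumors per the labels. Spots of 1 section are not replicates.

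Exact intervals are Clopper-Pearson at 95%. Python 3 with numpy, scipy and matplotlib gave the descriptive values. Edge spots lie within 3 steps of a position off tissue. Members and lists were chosen with earlier results of these data known. Named genes are the members, the other Schlafen rows, for each list the called genes (up to 4) and the 2 most abundant, and the nearest genes (5 for Slfn4, 3 for others). A few further genes are named outside this rule. Alternatives tried were 2 other scalings, DESeq2 1.42.0, limma 3.58.1 voom, no filter, a replicate block, interior spots, spots without skin, muscle or fat, the outer 25% of spots, depth strata, thinned spots and each section left out. Splitting without a list's most abundant gene was added after seeing the data. A gene that this rule names is not reported here.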

Additional observations from a re-analysis of the deposited data

Results flagged for a closer look

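Slfn4 and the neutrophil list moved in opposite ways in the strains. The high to low ratio of Slfn4 was 1.79 and 2.29 in both CC075F1 sections and 0.865 and 0.956 in both CC080F1 sections, a difference of the mean log2 ratios of 1.16. The interaction in edgeR had an unadjusted p of 0.000378 and an adjusted p of 0.664 over all genes, so it did not pass. Mmp9 took most of this list, and without it the ratio was above 1 in 4 of 4 sections (1.58 to 4.45). The genes left were led by Clec4d and Acod1, and whether they mark neutrophils here was not tested.

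Slfn9 at the tissue edge was the other case. Its edge to interior ratio was above 1 in CC075F1 (1.12 and 1.26) and below 1 in CC080F1 (0.840 and 0.955), a difference of the mean log2 ratios of 0.41. This difference was not tested.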

How the results depend on the processing

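Of the member values recomputed under other settings, 444 stayed on their side of the threshold or, where no test was made, within 1 SE. Among these, values without a call in either fit were counted whatever their sign. Slfn9 in neutrophil spots, for example, was at -0.03 and ranged from -0.08 to 0.06. A further 51 lost and 31 gained a call, and 13 values without a test moved by more than 1 SE. Slfn9 in monocyte spots turned from -0.02 to 0.44, with a call, when Fn1 was left out of the split. In interferon-stimulated spots the members that passed stayed at 5 or 6 in every setting, and 1139 genes passed in all, against 129 to 1099 with a section left out.
Between strains, 14 genes passed, against 40 with library size alone, 194 with DESeq2, 480 without a filter and 11 to 207 with a section left out. The labels do not say that replicate numbers pair sections (correlation 0.166), and the replicate block gave 287. With a section left out, interferon-gamma-induced spots gave 95 to 2633 genes and 1 to 6 members.
Neutrophil spots gave 1939 genes and 1 member at first, 1267 and 0 (3 at an unadjusted p under 0.05) in depth strata, 803 and 0 (1) in thinned spots, 952 and 0 (1) with DESeq2, 631 and 4 without Mmp9, 2 members with the outer 25% of spots or library size alone, and 904 to 1886 genes and 0 to 1 member with a section left out.
Monocyte spots gave 293 genes and 2 members, against 111 genes with the outer 25% of spots, 573 with DESeq2 size factors, 810 without skin, muscle or fat spots, 1169 and 5 members in depth strata, 65 and 1 in thinned spots, 31 and 0 (5 unadjusted) with library size alone, 754 and 4 with DESeq2, 1125 and 5 without a filter, 2005 and 6 without Fn1, and 0 to 1563 and 0 to 5 with a section left out.
Macrophage spots gave 331 genes and 3 members, against 939 genes in depth strata, 586 without a filter, 1 member in thinned spots or with DESeq2 size factors, 0 and 0 with library size alone (3829 genes and 6 members unadjusted), 1244 and 5 with DESeq2, 155 and 1 without Lyz2, and 0 to 1349 and 0 to 4 with a section left out.
T and NK cell spots gave 1810 genes and 4 members, against 3047 genes in depth strata, 1027 and 2 in thinned spots, 467 and 2 without Thy1, and 8 to 1972 and 0 to 5 with a section left out. The cause of these changes was not tested. With 2 sections per strain an exact permutation test cannot go below 0.333, and Slfn4 in CC075F1 rests on 109 and 257 UMIs.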

Other observations

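In the map of CC080F1 replicate 2, Slfn4 spots were denser on the left, and the section was divided at grid column 64 after this was seen. Slfn4 was at 16.9 CPM in the 1609 spots on the left and at 12.1 CPM in the 1565 on the right. The interferon-stimulated list was at 1698 and 1762 CPM, the monocyte list at 907 and 913 CPM, and Slfn5 at 19.0 and 20.3 CPM, with left to right ratios of 0.964, 0.993 and 0.934 against 1.40 for Slfn4. The erythrocyte list was at 222 CPM on the left and 42.7 CPM on the right, and the tumor list at 292 and 224 CPM. Their part in the Slfn4 pattern was not tested. In CC075F1 the left to right ratio of Slfn4 was 0.681 and 0.691, and in CC080F1 replicate 1 it was 1.05.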
